A study of Mus musculus with 22 samples.

Results

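The T cell receptor complex and its proximal kinases were followed here through 9 genes: the CD3 chain genes Cd3e, Cd3d, Cd3g and Cd247, the coreceptor genes Cd8a and Cd8b1, the kinase genes Lck and Zap70, and the adaptor gene Lat. They were chosen by gene symbol for their place in the receptor, with earlier results of these data known. All 9 were found among 46603 genes in the count table and passed the filter on low counts, which kept 21183 genes for testing. RNA was sequenced from 22 libraries of mouse CD8+ T cells, from 8 mice in 8 groups. Naive cells had been enriched from spleen and lymph nodes with magnetic beads that deplete the rest. One set was left unstimulated, and others were cultured for 24 h or 48 h with anti-CD3 coated on plastic (clone 145-2C11, 2 µg/ml) and anti-CD28 in solution (1 µg/ml). The line Tcaim KI Cd4Cre gave 3 KI mice (genotype label hocre) and 3 wt mice (genotype label wtcre), each with a naive, a 24 h and a 48 h library. The line Tcaim KO Cd4Cre gave 2 KO mice (genotype label hocre), both female, each with a naive and a 48 h library. No 24 h KO library and no wt mouse of the KO line was analysed here, so the line and the KO label cannot be told apart. By the line names, Cre was driven by Cd4 regulatory sequence, which is active in developing T cells of both the CD4 and the CD8 lineage. Ages and further strain details were not given in the labels. The 3 replicates of a group are different mice from experiments 1, 3 and 5, and the KO mice come from experiments 1 and 5.

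The T cell receptor recognises a peptide held by an MHC molecule through its alpha and beta chains, which have almost no part inside the cell. Signals are carried by the CD3 epsilon, delta and gamma chains and by the zeta chain encoded by Cd247. On a CD8 T cell the CD8 alpha and beta chains bind MHC class I and bring in Lck, a Src-family kinase that phosphorylates the tails of the CD3 and zeta chains. Zap70, a kinase of the Syk family, docks on those phosphorylated tails and phosphorylates Lat, a membrane adaptor on which the downstream enzymes assemble. The antibody 145-2C11 binds the CD3 epsilon chain itself. Receptor complexes that are engaged are taken into the cell, so protein at the surface need not follow the RNA measured here.

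Levels were read as CPM, a gene's count relative to the TMM-scaled total of its library. Total counts ran from 62551905 to 93489115 per library, and the 9 genes together took 0.319% to 0.643% of them. Tcaim, the targeted gene, lay at 138 to 260 CPM in the KI libraries and at 8.38 to 15.2 CPM in the wt libraries. In the libraries labelled KO it lay at 14.9 and 19.6 CPM in naive cells and at 11.7 and 5.99 CPM at 48 h, so the label is not borne out by a lower total Tcaim count in naive cells. A count over the whole gene does not show whether a part of it was deleted. Among the naive libraries, that of KO mouse 1 had the highest Cd4 level (184 CPM, the others 16.5 to 54.8) and the highest summed level of 6 B cell markers (1254 CPM, the others 142 to 454). Its 48 h library also had the highest Cd4 level of the stimulated libraries (152 CPM, the others 8.49 to 46.5). The differences of the 9 genes in the KO groups are therefore also given without this mouse. Its part in the other results was tested by leaving both of its libraries out of the shared fit.

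The positions below are those of the authors' tables and match the GENCODE annotation of GRCm38. Cd3g (chr9:44969572-44980431, minus strand), Cd3d (chr9:44981786-44987339, plus strand) and Cd3e (chr9:44998740-45009627, minus strand) lie side by side. Cd3g and Cd3d are transcribed away from each other, with 1354 bases between them, and 11400 bases separate Cd3d from Cd3e. Cd8b1 (chr6:71322788-71337494) and Cd8a (chr6:71373427-71379173) lie on the same strand with 35932 bases between them. Cd247 (chr1:165788681-165877277, plus strand), Zap70 (chr1:36761798-36782818, plus strand), Lck (chr4:129548344-129573641, minus strand) and Lat (chr7:126363824-126369570, minus strand) have no other member nearby. Exons of Cd3e overlap those of the antisense gene Gm48719, exons of Cd247 overlap those of Gm16565 and, on the other strand, Pou2f1, and exons of Lck and Lat hold the microRNA genes Mir8119 and Mir7058. The libraries came from a stranded kit, but the strand setting of the counting is not given in the sources used here, so reads in those stretches may have been split or shared.

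RefSeq start sites (GRCm38.p6) were matched for 8 of the 9 genes, with a pair of sites for Lck and 3 for Zap70. The 250 bases before each start were searched on both strands. The letters CAGGAAG stood for an ETS-type motif and TGTGGT for a RUNX-type motif. The letters CAGCTG stood for an E-box, TATAAA for the TATA box of core promoters and GGGCGG for a GC-rich Sp1-type box. The letters TGACGTCA stood for the palindrome of a cyclic AMP response element. None of these motifs contains another. The sequences shown are those of the neighbouring Cd3g, Cd3d and Cd3e, whose RNAs moved by different amounts, and of the kinases Lck and Zap70, whose RNAs moved in opposite directions. Each runs 5′ to 3′ towards the start on the gene's strand, and capitals mark a motif.
Cd3g (chr9:44980432-44980681, minus strand): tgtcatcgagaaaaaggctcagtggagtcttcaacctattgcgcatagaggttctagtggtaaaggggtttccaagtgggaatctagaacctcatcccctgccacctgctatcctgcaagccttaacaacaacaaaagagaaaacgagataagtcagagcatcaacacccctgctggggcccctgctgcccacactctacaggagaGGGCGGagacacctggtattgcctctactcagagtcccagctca
Cd3d (chr9:44981536-44981785, plus strand): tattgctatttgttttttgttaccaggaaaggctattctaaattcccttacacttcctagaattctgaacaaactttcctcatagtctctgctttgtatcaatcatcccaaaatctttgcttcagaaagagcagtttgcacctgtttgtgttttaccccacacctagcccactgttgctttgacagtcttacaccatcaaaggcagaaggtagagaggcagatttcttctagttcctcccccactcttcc
Cd3e (chr9:45009612-45009861, minus strand): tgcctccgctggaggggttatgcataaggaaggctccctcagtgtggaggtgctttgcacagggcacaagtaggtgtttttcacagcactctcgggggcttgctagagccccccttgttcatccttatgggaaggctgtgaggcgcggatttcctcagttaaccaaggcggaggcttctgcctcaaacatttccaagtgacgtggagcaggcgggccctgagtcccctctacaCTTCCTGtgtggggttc
Lck, outer site (chr4:129573642-129573891, minus strand): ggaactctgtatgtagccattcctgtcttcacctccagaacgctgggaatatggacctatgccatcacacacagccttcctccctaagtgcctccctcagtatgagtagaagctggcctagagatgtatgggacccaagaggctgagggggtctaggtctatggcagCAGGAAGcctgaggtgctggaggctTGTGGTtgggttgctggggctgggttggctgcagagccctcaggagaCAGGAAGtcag
Lck, inner site (chr4:129558373-129558622, minus strand): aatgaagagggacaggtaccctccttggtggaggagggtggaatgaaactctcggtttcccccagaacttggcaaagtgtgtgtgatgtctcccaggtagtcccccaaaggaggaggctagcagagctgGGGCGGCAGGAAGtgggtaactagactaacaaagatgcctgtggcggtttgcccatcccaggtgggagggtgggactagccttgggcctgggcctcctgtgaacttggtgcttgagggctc
Zap70, outermost site (chr1:36761548-36761797, plus strand): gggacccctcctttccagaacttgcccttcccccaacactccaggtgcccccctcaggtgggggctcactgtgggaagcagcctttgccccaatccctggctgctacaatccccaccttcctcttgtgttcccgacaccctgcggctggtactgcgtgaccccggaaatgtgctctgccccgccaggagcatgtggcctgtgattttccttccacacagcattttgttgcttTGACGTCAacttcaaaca

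The ETS-type letters stood 17 bases before the Cd3e start on the opposite strand, 83 and 11 bases before the outer Lck start, and 115 bases before the inner Lck start. Over 32817 RefSeq promoter windows of 250 bases, 10.8% held them. The outer Lck window also held the RUNX-type letters 58 bases before the start, found in 14% of windows, and the inner window held a GC box, found in 32.7%. Zap70 held the full palindrome 18 bases before its outermost start, as did 1.55% of all windows. Its second start had the ETS-type letters at 39 and the RUNX-type letters at 75 bases. Cd3g held a GC box at 44 bases, and Cd247 held the ETS-type letters on the opposite strand at 57 bases. None of the 6 motifs was found in the windows of Cd3d, Cd8a and Lat. These are matches of letters, and the present data hold no measurement of binding. Lck is known to be transcribed from a distal and a proximal promoter, and the counts over the whole gene do not separate transcripts from the 2 start sites.

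Naive cells held much of this RNA. Per length, as FPKM in the deposited table, the order in naive wt cells was Cd8b1 at 899, Cd3g at 637, Lat at 461, Cd3d at 417, Cd8a at 416, Lck at 356, Cd3e at 329, Cd247 at 82.8 and Zap70 at 60.6 FPKM (means of 3 mice). Cd8b1 ranked 28 and Cd3e 83 among 21674 listed genes, so that 7 of the 9 genes ranked 83 or higher. Cd247 ranked 514 and Zap70 ranked 794. At 48 h in wt cells Cd8b1 was still the highest of the 9 at 399 FPKM (rank 65), while Zap70 at 74.0 FPKM stood above Cd247 at 44.4 FPKM. The antigen receptor gene Trac was present in every library, at 441 to 762 CPM.

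**Figure D1:**
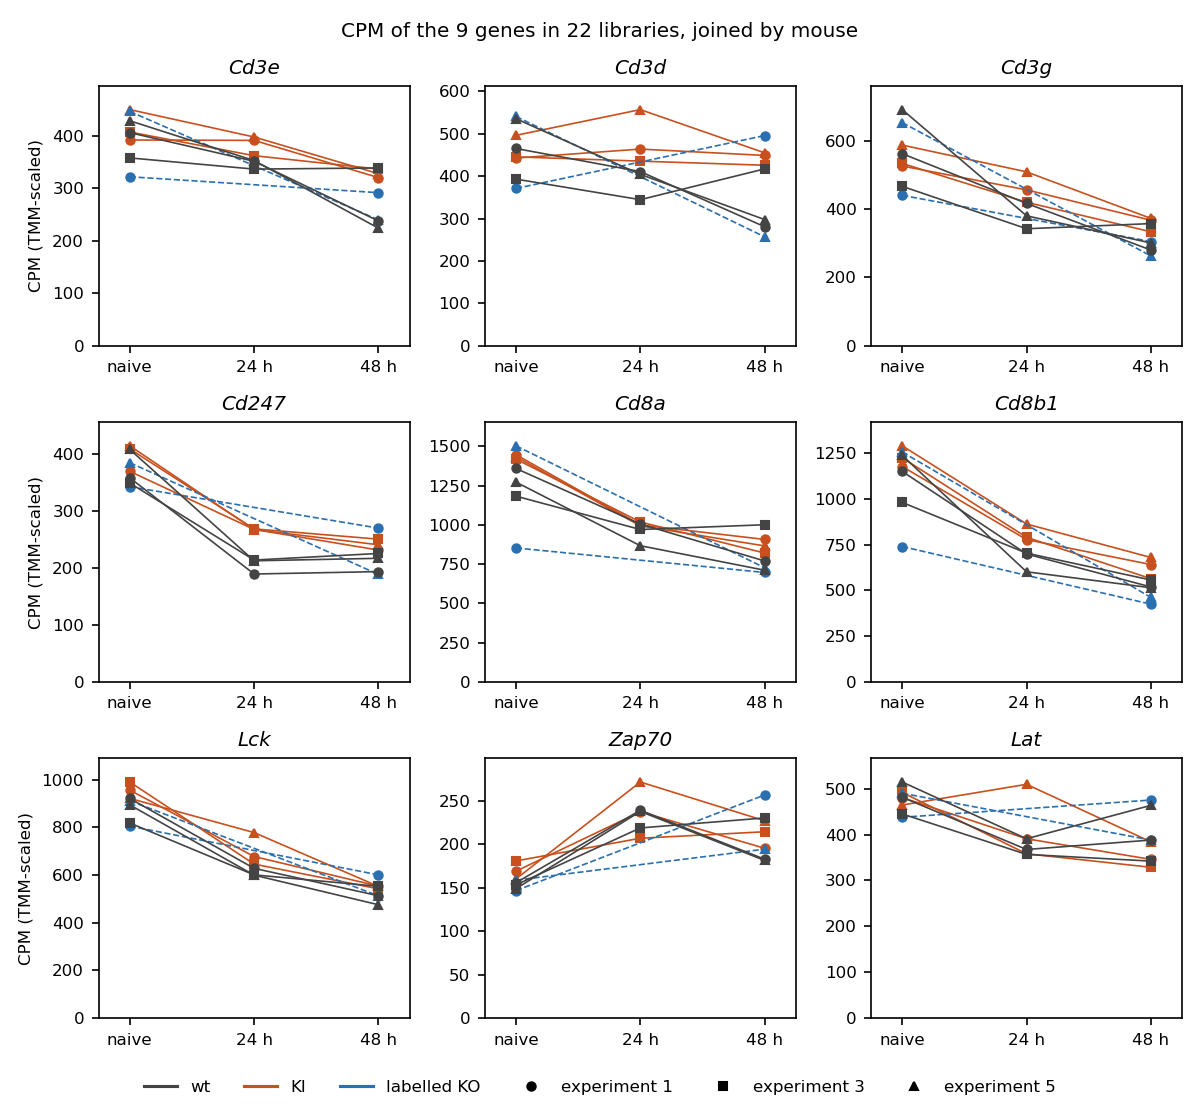
CPM of each of the 9 genes (y axis, linear from 0) in naive, 24 h and 48 h libraries (x axis). Each line joins the libraries of 1 mouse, with colour for genotype and symbol for experiment. The Lck and Cd247 lines run down from the naive point in every mouse and the Zap70 lines run up, while Cd3d and Lat lines cross.

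Most of the receptor RNAs were lower, and Zap70 was higher, in stimulated than in naive libraries. No library of cells cultured without stimulation was analysed here, so culture and stimulation cannot be told apart. The sum of the 9 genes, given with no test, was 5714 ± 509 CPM in naive wt cells, 4148 ± 140 CPM at 24 h and 3591 ± 374 CPM at 48 h (SD, n = 3). In KI cells the sum was 6095 ± 129, 4772 ± 334 and 3978 ± 148 CPM (SD, n = 3). In the wt cells at 48 h, 6 genes fell (Cd3e, Cd3g, Cd247, Cd8a, Cd8b1 and Lck) and 1 rose (Zap70) by edgeR's quasi-likelihood test with Benjamini-Hochberg adjustment over all tested genes. In that comparison 26.8% of all tested genes fell and 29.6% rose, and the median log2 fold change was -0.62 over the 9 genes and -0.04 over all tested genes. Without the KO mouse 1 libraries in the shared fit, 8 genes were called, with Cd3d added at -0.48 on the log2 scale (edgeR adjusted p = 0.00898). The share of all genes called in that fit is not given here. A CPM is a share of the RNA in a library, and the total RNA per cell was not measured here. A lower share therefore does not by itself show less of that RNA per cell. In bulk samples fewer cells of a type and less RNA per cell cannot be told apart either.

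Marker genes of several other cell types also differed between naive and stimulated libraries. The summed B cell markers lay at 142 to 1254 CPM in naive libraries and at 34.4 to 261 CPM in stimulated ones. The summed markers of natural killer cells lay at 17.9 to 126 CPM in naive libraries and at 0.0596 to 2.06 CPM after stimulation, and those of myeloid cells at 83.8 to 241 and 12.7 to 44.5 CPM. Those of gamma-delta T cells, which carry the CD3 chains themselves, lay at 37.3 to 65.0 CPM in naive libraries and at 5.19 to 25.4 CPM after stimulation. The summed CD4 T cell markers overlapped widely, at 41.0 to 283 CPM in naive libraries and 32.3 to 211 CPM in stimulated ones. The summed dendritic cell markers went the other way in wt cells, from 3.30 to 5.54 CPM in naive libraries to 7.09 to 10.6 CPM at 48 h. That rise was in Zbtb46 alone, from a mean of 1.27 to 7.72 CPM. The other dendritic cell markers fell: Siglech from 1.13 to 0.0216 CPM, Xcr1 from 1.52 to 0.640 CPM and Clec9a from 0.771 to 0.0223 CPM. None of the 4 gamma-delta T cell, 6 B cell, 4 natural killer cell or 5 myeloid markers was at 0 throughout a group. Their part in the changes of the 9 genes was not tested.

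Among the CD3 chain genes, Cd247 for the zeta chain had the largest fitted fall at 24 h in both genotypes. In naive cells it stood at 358, 348 and 408 CPM in wt, 369, 408 and 414 CPM in KI, and 342 and 384 CPM in libraries labelled KO. At 24 h it stood at 189, 214 and 212 CPM in wt and at 267, 268 and 267 CPM in KI. At 48 h it stood at 193, 225 and 217 CPM in wt, 231, 250 and 240 CPM in KI, and 269 and 188 CPM in the libraries labelled KO. Every naive library lay above every stimulated one. Cd247 fell by 0.86 on the log2 scale at 24 h in wt cells (SE 0.12, adjusted p = 1.13e-05, edgeR) and by 0.81 at 48 h (adjusted p = 1.46e-05). Between 24 h and 48 h its fitted change in wt cells was 0.05 with a 95% interval of -0.20 to 0.29.

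Cd3g, the gamma chain gene, stood at 563, 467 and 692 CPM in naive wt cells, 417, 343 and 381 CPM at 24 h, and 280, 358 and 301 CPM at 48 h. In KI cells the values were 527, 534 and 588 CPM, then 457, 420 and 510 CPM, then 368, 334 and 373 CPM. The libraries labelled KO gave 441 and 654 CPM in naive cells and 305 and 263 CPM at 48 h. The naive values lay above all stimulated ones of the same genotype label, and the 24 h and 48 h values overlapped in wt but not in KI cells. Cd3g fell by 0.87 on the log2 scale at 48 h in wt (SE 0.16, edgeR adjusted p = 0.000118) and by 0.62 in KI cells (adjusted p = 0.00311). At 24 h it fell by 0.59 in wt cells (adjusted p = 0.00414, but 0.0628 without wt mouse 5) and its fitted change in KI cells was -0.25 (adjusted p = 0.217). That KI change was called with upper-quartile scaling (adjusted p = 0.0322), by limma (adjusted p = 0.047) and in the compared groups alone (adjusted p = 0.0157).

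The delta chain gene Cd3d, the close neighbour of Cd3g, was called in neither genotype. It stood at 465, 393 and 536 CPM in naive wt cells, 411, 344 and 404 CPM at 24 h, and 281, 417 and 298 CPM at 48 h. The KI libraries gave 443, 446 and 496 CPM, then 464, 435 and 557 CPM, then 449, 426 and 455 CPM, so KI levels overlapped at all 3 times. The 2 mice labelled KO moved in opposite directions, from 371 to 496 CPM in mouse 1 and from 541 to 257 CPM in mouse 5. The fitted 48 h change was -0.49 (95% interval -0.92 to -0.06, edgeR adjusted p = 0.0513) in wt and -0.06 (95% interval -0.49 to 0.37, adjusted p = 0.832) in KI cells. The difference of those changes, 0.43 (95% interval -0.18 to 1.03), had an adjusted p of 0.701. The wt value was called under each of the 3 other scalings, limma, a fit of the wt libraries compared and DESeq2 (adjusted p = 0.0211). At 48 h wt mouse 3, at 417 CPM, stood apart from the other wt mice, and without it the wt change was -0.79 (adjusted p = 0.0113).

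Cd3e, the chain that the stimulating antibody binds, stood at 406, 358 and 429 CPM in naive wt cells, 352, 337 and 353 CPM at 24 h, and 238, 339 and 224 CPM at 48 h. The KI values were 392, 407 and 450 CPM, then 391, 362 and 398 CPM, then 320, 337 and 328 CPM. Libraries labelled KO held 322 and 447 CPM in naive cells and 292 and 240 CPM at 48 h. Every wt library at 24 h lay below every naive wt library, while the KI values overlapped. The fitted 24 h change was -0.20 in wt (95% interval -0.50 to 0.11) and -0.12 in KI cells (95% interval -0.42 to 0.19), neither of them called. With upper-quartile scaling the wt change was -0.38 and was called (adjusted p = 0.0357). Cd3e fell by 0.58 at 48 h in wt cells (SE 0.15, edgeR adjusted p = 0.0026), a call lost without wt mouse 1 (adjusted p = 0.0552) or wt mouse 5 (adjusted p = 0.0624). In KI cells the 48 h change was -0.34 (edgeR adjusted p = 0.0585). It was called in 7 of 14 alternatives, including DESeq2 (adjusted p = 0.0154) and the shared fit without KO mouse 1 (adjusted p = 0.0315).

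Both coreceptor genes fell, Cd8b1 by more than Cd8a in each mouse, as the count ratios given further on show. Cd8b1, for the beta chain, stood at 1151, 981 and 1238 CPM in naive wt cells, 699, 704 and 602 CPM at 24 h, and 519, 557 and 514 CPM at 48 h. KI libraries held 1177, 1225 and 1290 CPM, then 778, 790 and 863 CPM, then 641, 564 and 680 CPM. Within each genotype the 3 times did not overlap. Cd8b1 fell by 1.08 on the log2 scale at 48 h in wt cells (SE 0.15, edgeR adjusted p = 7.32e-06) and by 0.97 in KI cells (SE 0.15, adjusted p = 3.38e-05), the largest falls among the 9 genes in these comparisons. Cd8a, for the alpha chain, stood at 1360, 1183 and 1273 CPM in naive wt cells, 1006, 971 and 868 CPM at 24 h, and 770, 1001 and 711 CPM at 48 h. KI libraries held 1448, 1419 and 1435 CPM, then 1000, 1019 and 994 CPM, then 908, 821 and 866 CPM. Its 48 h fall was 0.62 in wt (edgeR adjusted p = 0.00264, but 0.0567 without wt mouse 1) and 0.73 in KI cells (adjusted p = 0.000896). The 24 h falls of 0.42 in wt (adjusted p = 0.0326) and 0.51 in KI (adjusted p = 0.0145) missed the threshold whenever any mouse of the genotype was left out.

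The naive library of KO mouse 1 was low in both coreceptor genes, with Cd8a at 853 CPM against 1504 CPM in KO mouse 5 and Cd8b1 at 740 against 1256 CPM. At 48 h the KO mice 1 and 5 stood at 697 and 727 CPM for Cd8a and at 424 and 461 CPM for Cd8b1. This is the library with the highest Cd4 and B cell marker levels. The ratio of its Cd8a and Cd8b1 counts to its Cd3e, Cd3d and Cd3g counts was 1.41, and the other naive libraries lay at 1.52 to 1.93. At 48 h the same ratio was 1.03 in KO mouse 1 and 1.26 to 1.61 in the other libraries. The part of the other lymphocytes in these values was not tested.

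**Figure D2:**
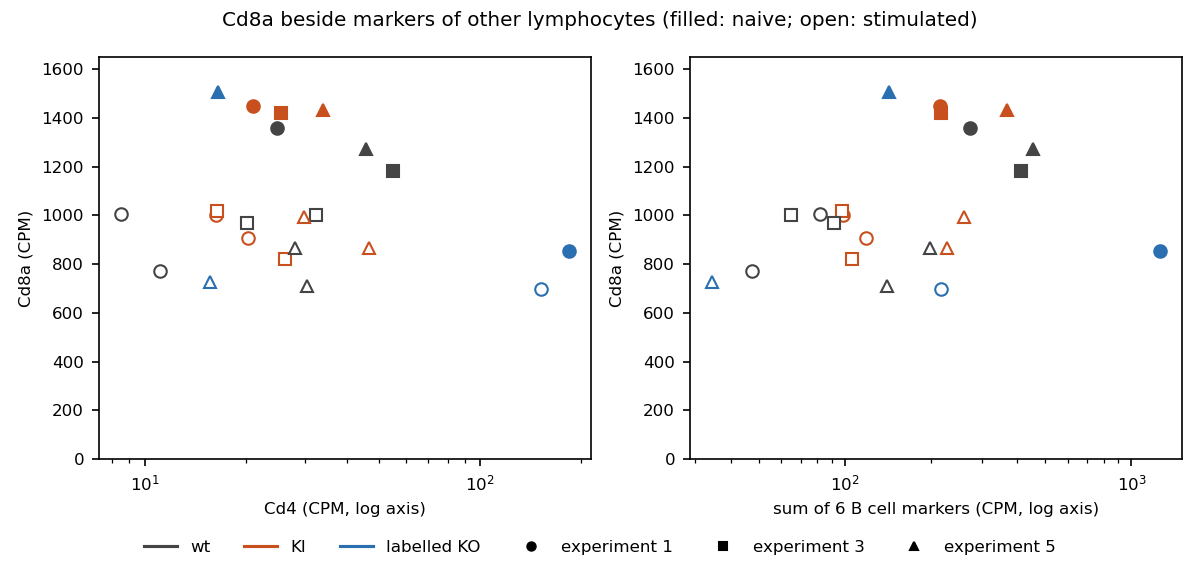
Cd8a CPM (y axis, linear from 0) against Cd4 CPM (left, log axis) and the summed CPM of 6 B cell markers (right, log axis) in the 22 libraries, filled for naive and open for stimulated cells. The naive and 48 h libraries of KO mouse 1 lie far to the right in the Cd4 panel, at 184 and 152 CPM.

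The kinases moved in opposite directions. Lck stood at 922, 819 and 895 CPM in naive wt cells, 628, 601 and 600 CPM at 24 h, and 513, 553 and 475 CPM at 48 h. The KI level was 957, 991 and 922 CPM, then 678, 646 and 778 CPM, then 553, 542 and 552 CPM. In the libraries labelled KO it stood at 805 and 912 CPM in naive cells and at 601 and 513 CPM at 48 h. All 8 naive libraries lay above all 14 stimulated ones. At 48 h Lck fell by 0.77 in wt (SE 0.10, edgeR adjusted p = 4.13e-06), by 0.80 in KI (SE 0.10, adjusted p = 4.04e-06) and by 0.63 in cells labelled KO (SE 0.12, adjusted p = 0.000531). Without KO mouse 1 the last value was -0.83 (adjusted p = 0.000677).

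Zap70 was the only one of the 9 genes with a called rise. It stood at 156, 153 and 149 CPM in naive wt cells, 239, 219 and 238 CPM at 24 h, and 183, 230 and 181 CPM at 48 h. The KI libraries gave 169, 181 and 160 CPM, then 237, 207 and 272 CPM, then 195, 214 and 227 CPM. In the libraries labelled KO it stood at 147 and 159 CPM, then 257 and 194 CPM at 48 h. Every stimulated library lay above every naive one, though the highest naive value (180.7 CPM, KI mouse 3) and the lowest stimulated value (181.3 CPM, wt mouse 5 at 48 h) nearly met. Zap70 rose by 0.60 on the log2 scale at 24 h in wt cells (SE 0.13, edgeR adjusted p = 0.000656) and by 0.49 in KI cells (SE 0.13, adjusted p = 0.00461). At 48 h it rose by 0.38 in wt cells (adjusted p = 0.0161) and by 0.32 in KI cells (adjusted p = 0.0416). With upper-quartile scaling the 48 h change was 0.16 in wt (adjusted p = 0.295) and 0.14 in KI cells (adjusted p = 0.378), and with a replicate block by mouse the KI call was lost (adjusted p = 0.0634). The KI call at 48 h was lost in 10 of 14 alternatives, including the scaling factors of DESeq2 (adjusted p = 0.0748), library size alone (0.0816), DESeq2 itself (0.0666) and limma (0.111). The 48 h call was also lost without wt mouse 3 (adjusted p = 0.164) in wt cells, and without each KI mouse in turn in KI cells (adjusted p from 0.0884 to 0.206), and the KI call at 24 h without KI mouse 5 (adjusted p = 0.0639) and with upper-quartile scaling (adjusted p = 0.0525).

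The adaptor gene Lat was called in 2 of the 5 comparisons with naive cells. It stood at 482, 445 and 515 CPM in naive wt cells, 368, 357 and 391 CPM at 24 h, and 388, 342 and 464 CPM at 48 h. KI libraries held 481, 492 and 465 CPM, then 391, 358 and 510 CPM, then 346, 329 and 384 CPM. In those labelled KO the values were 438 and 490 CPM, then 475 and 388 CPM at 48 h. The 24 h KI values overlapped both the naive and the 48 h ones, and the KO values overlapped between times. Lat fell by 0.37 at 24 h in wt cells (edgeR adjusted p = 0.0307), a call lost when any wt mouse was left out, and by 0.44 at 48 h in KI cells (adjusted p = 0.0117, but 0.0844 without KI mouse 1 and 0.0985 without KI mouse 3). In wt cells at 48 h its change was -0.27 (95% interval -0.55 to 0.01, adjusted p = 0.0953), and it was called there under the 3 other scalings. These included upper-quartile scaling, at -0.49 (adjusted p = 0.00395). It was also called by DESeq2 (adjusted p = 0.0391) and by limma (adjusted p = 0.0185). In KI cells at 24 h the Lat change was -0.19 (edgeR adjusted p = 0.279), called with upper-quartile scaling (adjusted p = 0.0345) and by limma (adjusted p = 0.0466).

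Counted over the 9 genes, 6 fell and 1 rose at 24 h in wt cells, where 22% of all tested genes fell and 26.3% rose. In KI cells 4 fell and 1 rose at 24 h (15.8% and 22.9% of all genes), and 6 fell and 1 rose at 48 h (22.1% and 26.6%). In cells labelled KO 6 fell and 1 rose at 48 h (20.4% and 23.7%). That last count rests on the spread shared with the other groups, since a fit of the KO libraries alone called 0 of the 9 genes. Without KO mouse 1, which leaves 1 KO library at each time, the Zap70 change was 0.30 (0.56 with both mice) and the Cd3d change was -1.07 (-0.28 with both). Without KO mouse 5 the Cd3d change was 0.42 and the Cd3e change was -0.15 (-0.53 with both). The comparisons at 24 h and 48 h within a genotype share their naive libraries. From 24 h to 48 h edgeR called 0 of the 9 genes in wt and 0 in KI cells, where 7.45% and 2.68% of all tested genes changed. Each had 3 genes with an unadjusted p under 0.05, as had 21.4% and 15.5% of all tested genes. DESeq2 called 0 in wt and 1 in KI cells, Lck (-0.31, adjusted p = 0.0102), with 2428 and 1256 calls over all genes.

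**Figure D3:**
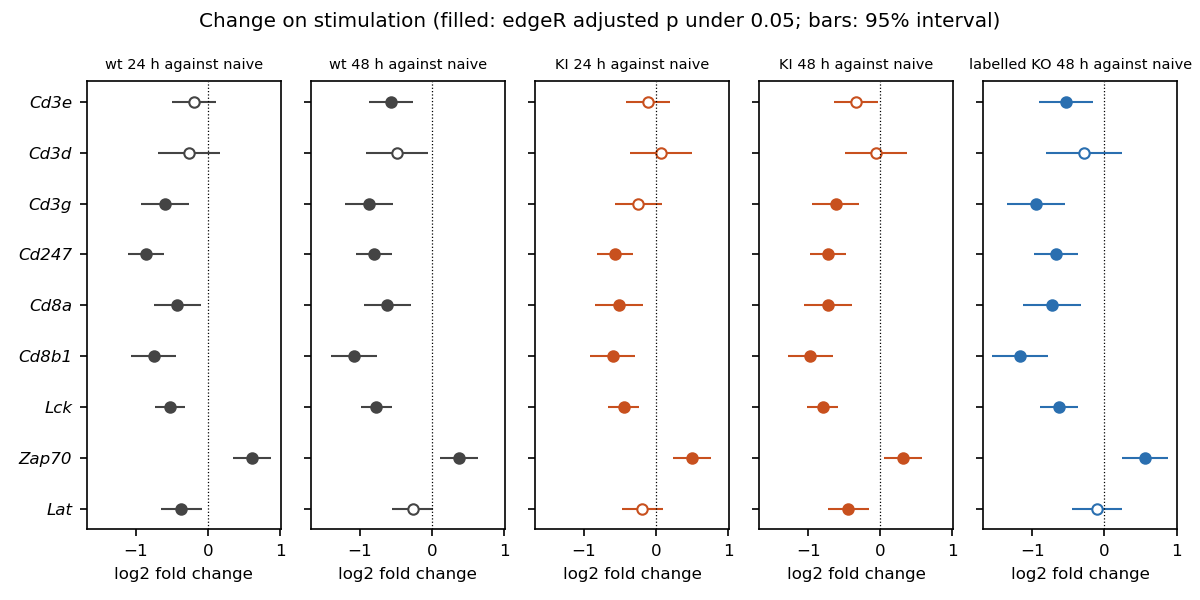
Fitted log2 fold change from naive cells (x axis) of each of the 9 genes (y axis), in 5 comparisons with 95% intervals. Filled points have an edgeR adjusted p under 0.05. Zap70 is the point to the right of 0 that is filled in all 5 panels, and Cd8b1 lies furthest left at 48 h.

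Ratios of raw counts within a library do not depend on scaling between libraries, and were compared within mice. Raw counts are not corrected for gene length, so the level of a ratio does not show which RNA was more abundant. Per length, the mean ratio in naive wt cells was 0.464 for Cd8a to Cd8b1, 0.252 for Cd247 to Cd3e and 0.170 for Zap70 to Lck. The pairs of genes were chosen with earlier results of these data known. The Zap70 to Lck count ratio was 0.174 ± 0.0114 in naive wt, 0.178 ± 0.00451 in naive KI (SD, n = 3) and 0.178 in naive KO-labelled cells. At 48 h it was 0.385 ± 0.0304, 0.386 ± 0.0300 and 0.403. From naive to 48 h the log2 ratio rose by 1.14 ± 0.08 (SD, n = 8 mice), in 8 of 8 mice and by 0.998 to 1.24 in each (exact two-sided sign-flip test, p = 0.00781, adjusted p = 0.0352 over 9 ratio tests). Without KO mouse 1 the rise was 1.13 (exact p = 0.0156). It had risen by 1.03 ± 0.16 at 24 h in 6 of 6 mice (exact p = 0.0312, the smallest that 6 mice allow, adjusted p = 0.0469). The KI minus wt difference at 48 h was 0.006 (exact permutation test, p = 1). With 3 mice of each genotype the smallest p of that test is 0.1, so it could not have called a difference.

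The Cd8a to Cd8b1 count ratio was 1.14 ± 0.0965 in naive wt and 1.17 ± 0.0595 in naive KI cells, and 1.56 ± 0.216 and 1.38 ± 0.0953 at 48 h (SD, n = 3). Its log2 value rose by 0.37 ± 0.13 from naive to 48 h, in 8 of 8 mice (SD, n = 8, exact sign-flip p = 0.00781, adjusted p = 0.0352), and by 0.35 without KO mouse 1 (exact p = 0.0156). At 24 h the rise was 0.21 ± 0.16 in 6 of 6 mice (exact p = 0.0312, adjusted p = 0.0469), between 0.19 and 0.49 in wt mice and between 0.05 and 0.15 in KI mice. That gap between genotypes at 24 h was seen in the values and was not tested. At 48 h the KI minus wt difference in the log2 ratio was -0.16 (exact permutation p = 0.4, in a test that cannot go below 0.1 with 3 mice of each genotype).

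The Cd247 to Cd3e count ratio fell from 0.935 ± 0.0483 in naive wt cells to 0.591 ± 0.0491 at 24 h, and stood at 0.815 ± 0.151 at 48 h (SD, n = 3). In KI cells it was 0.954 ± 0.0432, 0.698 ± 0.0372 and 0.732 ± 0.0109. Within mice the log2 ratio fell by 0.56 ± 0.12 at 24 h in 6 of 6 mice (exact sign-flip p = 0.0312, adjusted p = 0.0469) and by 0.26 ± 0.19 at 48 h in 7 of 8 mice (exact p = 0.0156, adjusted p = 0.0469). Without KO mouse 1 the 48 h value was -0.27 (exact p = 0.0312). The exception was wt mouse 5, at 0.02. The zeta chain RNA thus stood lower against the epsilon chain RNA at 24 h in each mouse measured, by 0.62 to 0.71 in wt and by 0.44 to 0.46 in KI mice on the log2 scale. This gap between genotypes was also seen in the values and was not tested. At 48 h the KI minus wt difference in this log2 ratio was -0.14 (exact permutation p = 0.5, in a test that cannot go below 0.1).

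**Figure D4:**
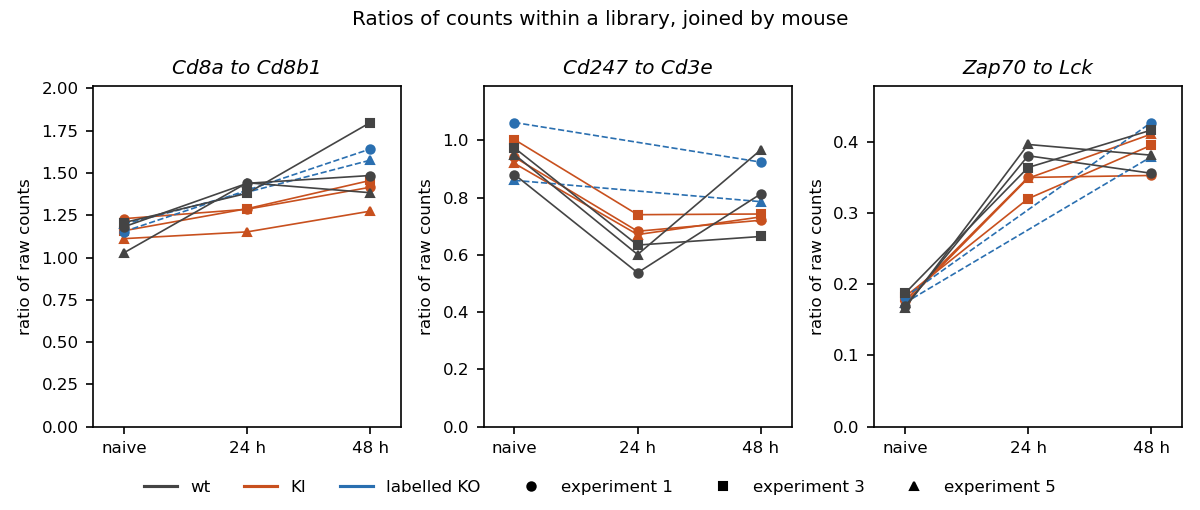
Ratio of raw counts of Cd8a to Cd8b1, Cd247 to Cd3e and Zap70 to Lck (y axes, linear from 0) in naive, 24 h and 48 h libraries (x axis), joined by mouse. The Zap70 to Lck ratio is near 0.174 to 0.178 in naive cells of each genotype and near 0.385 to 0.403 at 48 h.

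Between genotypes no member passed the test. KI minus wt calls by edgeR were 0 of 9 in naive cells, at 24 h and at 48 h, against 0.0803%, 0.00472% and 4.2% of all tested genes. KO minus wt calls were 0 of 9 in naive cells and at 48 h, against 0.0236% and 0.0283%, and DESeq2 and limma called 0 of 9 in all 5 as well. Further tests asked whether the change from naive cells differed from that in wt cells. They called 0 of 9 for KI at 24 h, KI at 48 h and KO at 48 h, against 0%, 0.387% and 0% of all genes. The only unadjusted p under 0.05 among these 8 comparisons was that of Cd247 between KI and wt cells at 24 h.

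That Cd247 difference was 0.38 on the log2 scale (95% interval 0.14 to 0.63, edgeR unadjusted p = 0.00444, adjusted p = 0.42). The level was 267 ± 0.655 CPM in KI and 205 ± 13.8 CPM in wt cells (SD, n = 3). It was 0.50, 0.33 and 0.33 within experiments 1, 3 and 5. At 24 h the fitted KI minus wt difference was above 0 for all 9 genes, from 0.04 (Zap70) to 0.38 (Cd247), with a median of 0.20 and 0.01 over all tested genes. For 6 of them (Cd3e, Cd3d, Cd3g, Cd247, Cd8b1 and Lck) every KI library lay above every wt library, which held for 11.1% of all tested genes. No member had every KI library below every wt library at any time, as 4.08% of all genes had in naive cells, 9.41% at 24 h and 9.78% at 48 h. The 9 genes are measured in the same 6 libraries and are not independent of each other, and no gene of them reached the threshold.

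At 48 h every KI library lay above every wt library for Cd3d, Cd247 and Cd8b1, again against 11.1% of all genes. The fitted differences were 0.42 for Cd3d (95% interval -0.01 to 0.85, edgeR adjusted p = 0.296), 0.30 for Cd3e (95% interval -0.01 to 0.60, adjusted p = 0.29) and 0.25 for Cd8b1 (95% interval -0.07 to 0.56, adjusted p = 0.418). For Cd3e the values rest on wt mouse 3 (339 CPM, the other wt mice 238 and 224): without it the difference was 0.51 and passed the test (adjusted p = 0.0378). Within experiments 1, 3 and 5 the Cd3d difference was 0.68, 0.03 and 0.61. Lat was the lone gene with a fitted value below 0, at -0.17 (95% interval -0.46 to 0.11). For Lck, at 0.10 (95% interval -0.12 to 0.31), and Zap70, at 0.10 (95% interval -0.16 to 0.36), the data limit a KI minus wt difference at 48 h more tightly than for Cd3d.

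In naive cells Cd8a, Lck and Zap70 were higher in every KI than in every wt library, a separation that 6.56% of all genes showed, with fitted differences of 0.17, 0.12 and 0.16. The Lck separation was narrow, at 921.9 CPM in the lowest KI and 921.5 CPM in the highest wt library. The uncalled differences of the libraries labelled KO from wt in naive cells ran from -0.17 (Cd8b1) to -6.14e-05 (Zap70). All 9 lay below 0, as did 43.1% of all tested genes. Without KO mouse 1, which leaves 1 naive KO library, they ran from 0.03 (Lat) to 0.24 (Cd8a). The sign of these differences thus turned on 1 mouse, and the 9 genes are not independent of each other. At 48 h the differences ran from -0.26 (Cd8b1) to 0.19 (Zap70), and without KO mouse 1 from -0.37 (Cd3d) to -0.002 (Lck), again with 0 of 9 called by edgeR. The 2 KO mice lay far apart for Cd3d at 48 h, at 496 and 257 CPM. Without KO mouse 5 the Cd3d difference was 0.58 (adjusted p = 0.0497), which rests on 1 library with the highest Cd4 level of the stimulated ones.

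**Figure D5:**
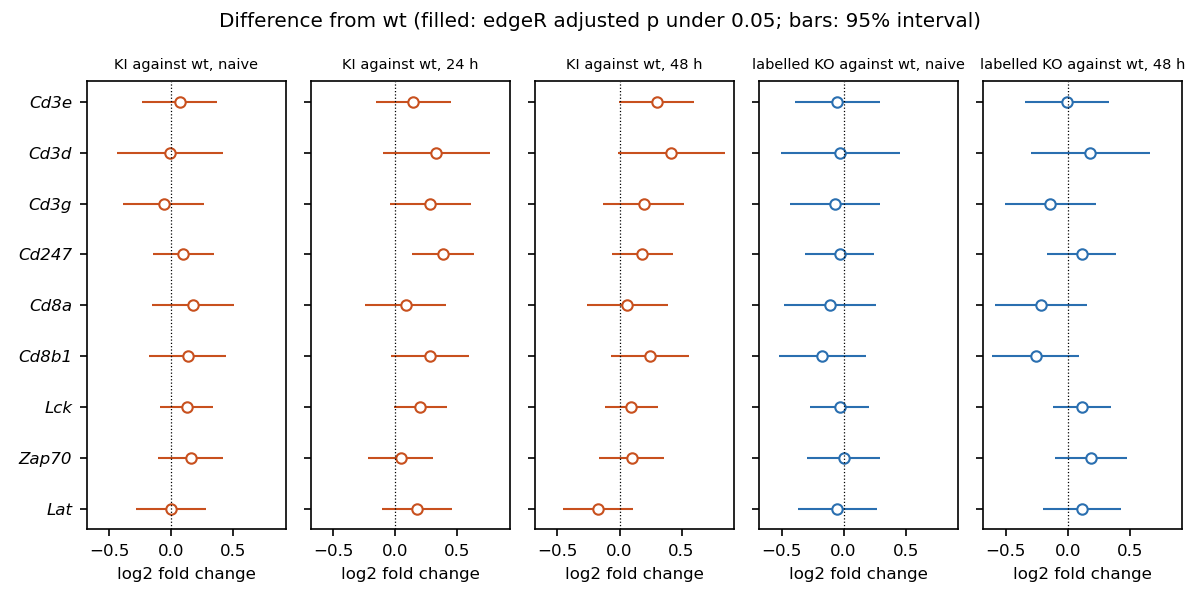
Fitted log2 difference from wt (x axis) of each of the 9 genes (y axis) for KI and for libraries labelled KO, with 95% intervals. All points are open, as none has an edgeR adjusted p under 0.05. At 24 h the 9 KI points lie to the right of 0, with the Cd247 interval from 0.14 to 0.63.

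Across the 22 libraries the likeness of the 9 genes varied. Pearson's r of log2 CPM was 0.956 between Cd8a and Cd8b1, 0.951 between Cd3g and Cd8b1, 0.927 between Lck and Cd8b1 and 0.907 between Cd3e and Cd3g. Cd3d, although next to Cd3g, had an r of 0.744 with it. Lat had an r of 0.352 with Cd3e, of 0.475 with Cd8a and of 0.712 with Lck. Zap70 had negative values with all members but Cd3d (0.069), the lowest with Cd247 at -0.652. These values describe 22 libraries from 8 mice, in which naive and stimulated libraries stand apart, and they are given with no test. Among 10166 genes with a mean of at least 10 CPM, the gene most like Lck was Pacs2 (r = 0.980), followed by Pcif1 and Dcp1b. Arl4c was most like Cd247 (0.975). Cd3g was most like the receptor segments Trbv15 (0.964) and Trbv4, Cd8a and Cd8b1 like each other, Cd3e like Snapin (0.945), Cd3d like Zscan2 (0.933), Zap70 like the zinc transporter gene Slc39a4 (0.912) and Lat like Gm17018 (0.918).

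The surrounding pathway was read from a list of 62 further genes, all of which were tested. At 48 h in wt cells 13 rose, 28 fell and 21 did not pass the test, with a median log2 fold change of -0.47. Over all tested genes 29.6% rose and 26.8% fell in that comparison. At 24 h the counts were 12 and 27 in wt cells, where 26.3% and 22% of all genes rose and fell, and 9 and 19 in KI cells, where 22.9% and 15.8% did. At 48 h they were 11 and 28 in KI cells (26.6% and 22.1% of all genes) and 13 and 18 in cells labelled KO (23.7% and 20.4%). With both libraries of KO mouse 1 out of the shared fit the wt counts at 48 h were 13 and 34. The share of all genes called in that fit is not given here, so the counts are not read as a result about the list. The list was chosen with earlier results of these data known, and its counts are descriptions.

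Of 6 antigen receptor and costimulatory genes, 2 rose at 48 h in wt cells and 4 fell, and the counts by role that follow are from the same comparison, in which 29.6% of all tested genes rose and 26.8% fell. Icos, a costimulatory receptor, rose by 1.64 (edgeR adjusted p = 1.11e-08), from 42.7 ± 5.43 to 133 ± 22.02 CPM (SD, n = 3), and the adhesion receptor Cd2 fell by 0.84 (adjusted p = 0.0213). Trac, Trbc1 and Trbc2, the constant segments of the antigen receptor, fell too. Of 12 kinases and phosphatases, 2 rose and 6 fell: Ptpn2, a phosphatase that acts on Lck, rose by 0.83 (adjusted p = 0.000412), and Syk, the Zap70 relative used by B cells, fell by 2.64 (adjusted p = 0.00996), from 63.0 ± 19.2 to 10.1 ± 6.13 CPM. The summed B cell markers in the same wt groups were 272 to 454 and 47.3 to 140 CPM, and their part in the Syk value was not tested. Of 16 adaptors 3 rose and 8 fell: Sh3bp2, which binds Zap70 and Syk, rose by 1.54 (adjusted p = 0.000323), and Pag1, a membrane anchor for the Lck inhibitor Csk, fell by 2.04 (adjusted p = 7.46e-07).

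Of 14 genes downstream, 1 rose and 6 fell at 48 h in wt cells. The one that rose was Orai1, the calcium channel opened after receptor signalling (1.13, edgeR adjusted p = 0.000156), and the steepest fall was that of Prkcq, the kinase PKC theta (-1.38, adjusted p = 2.75e-07). Of 14 brakes on the receptor, 5 rose and 4 fell. Cblb, a ubiquitin ligase that restrains receptor signalling, rose by 1.66 (adjusted p = 0.000155), and Dgka, which removes diacylglycerol, fell by 2.37 (adjusted p = 4.12e-08), from 1342 ± 72.5 to 259 ± 24.0 CPM (SD, n = 3).

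In the same list 4 genes were called between KI and wt cells at 48 h, with 3 higher and 1 lower in KI cells. Of all tested genes 2.29% were higher and 1.91% lower. Calls over all genes in this comparison ran from 89 to 1278 without 1 mouse and were 109 in the compared groups alone. Whether the 4 calls held in those fits is not given here. The kinase Fyn was higher by 0.36 (SE 0.09, edgeR adjusted p = 0.0216), at 333 ± 12.1 CPM in KI and 260 ± 17.1 CPM in wt cells (SD, n = 3). Prkcq was higher by 0.52 (adjusted p = 0.0474, 268 ± 17.7 and 187 ± 6.30 CPM) and Dgka by 0.73 (430 ± 90.1 and 259 ± 24.0 CPM), at an adjusted p of 0.05 after rounding that was under the threshold. Ppp3cb, a calcineurin catalytic subunit, was lower by 0.46 (adjusted p = 0.0265), at 92.8 ± 8.10 and 128 ± 10.1 CPM. Cd28, at 0.60 (adjusted p = 0.0927), and Pag1, at 0.60 (adjusted p = 0.151), did not pass. Without KO mouse 1 in the shared fit 4 genes of the list were higher and 4 lower, where 1746 of all tested genes were called (889 with that mouse). In naive cells and at 24 h edgeR called 0 of the 62 genes between KI and wt.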

How the data were processed

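Raw counts per gene were produced by the authors. The submitters' processing notes name bcl2fastq 2.20.0, TopHat2 2.1.0, Bowtie2 2.2.5, SAMtools 0.1.19, featureCounts and DESeq2 1.6.3, with GRCm38 and mm10, but no strand setting. The authors also deposited log2 normalized values, log2 variance-stabilised values and FPKM values for 21674 genes. The FPKM values served for levels per length and the variance-stabilised values for an alternative.

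Groups came from the labels. The counts were fitted with edgeR 4.0.16 in R 4.3.3: TMM scaling, a filter with a minimum count of 10, 8 group means over 22 libraries with 14 residual degrees of freedom, and the quasi-likelihood F test. P-values were adjusted over 21183 genes and called under 0.05. CPM values are from the same scaling. Ratios of raw counts were tested within mice by exact sign-flips. Scripts were checked on simulated data.

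The members, lists and tests were chosen with earlier results of these data known. Named pathway genes were, per role, the called genes with the largest change in each direction, or else the gene with the smallest p. The genes most like a member were the 3 with the highest Pearson r.

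The experiment numbers pair libraries, because mouse and experiment are both given in the labels. The median r between deviations from group means was 0.375 in 20 pairs from the same mouse, 0.178 in 51 pairs from other mice of the same experiment and -0.0769 in 140 other pairs. Alternatives were other scalings, no filter, DESeq2 1.42.0, limma 3.58.1, the compared groups alone, both replicate blocks and each mouse left out. After the data were seen, robust estimation and a fit without KO mouse 1 were added.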

Additional observations from a re-analysis of the deposited data

How the results depend on the processing

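Of 1989 recomputed log2 fold changes of the 9 genes over 15 comparisons, 1841 kept their sign and their side of the threshold, 44 called values lost the call, 34 gained it and 70 uncalled values changed sign. No called value reversed. A replicate block, by experiment or by mouse, changed 1 member call, that of Zap70 in KI cells at 48 h (0.32, adjusted p = 0.05 and 0.32, adjusted p = 0.0634). The number of the 9 genes called from 24 h to 48 h in KI cells was 0 as reported. It was 1 with library size alone, 1 with DESeq2 and 1 without KO mouse 1 in the shared fit (each time Lck). In wt cells it was 1 without KO mouse 1 (Cd8b1, adjusted p = 0.0486), in a fit with 2573 calls over all genes. For KO 48 h against naive it was 0 when the naive and 48 h KO libraries were fitted by themselves, which have 2 libraries each. Leaving out 1 mouse at a time gave 4 to 5 genes for wt 24 h against naive, with 7009 to 9448 calls over all genes (10247 in the main fit). For wt 48 h it gave 5 to 7 (8780 to 10377 over all genes, main fit 11942). It gave 3 to 4 for KI 24 h (4855 to 6270, main fit 8206) and 5 to 6 for KI 48 h (7399 to 7456, main fit 10312). For wt 48 h against 24 h and for KI against wt at 48 h it gave 0 to 1, and 0 in the other wt and KI comparisons. Counts for the KO comparisons are left out, as leaving out a KO mouse leaves 1 KO library in a group.

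The ratio changes kept their direction without each mouse in turn. The 24 h change then ran from 0.149 to 0.237 for Cd8a to Cd8b1, from -0.582 to -0.527 for Cd247 to Cd3e and from 0.987 to 1.08 for Zap70 to Lck, with p = 0.0625, the smallest exact p that 5 mice allow. The KI minus wt difference of Zap70 to Lck at 48 h, near 0, ran from -0.0479 to 0.0704.

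Upper-quartile scaling lowered the median of all genes by 0.171 to 0.219 in the comparisons with naive cells and moved the share of called genes that rose from 52.5% to 41.7% for wt 48 h, from 54.5% to 42.5% for wt 24 h, from 59.2% to 44.9% for KI 24 h, from 54.6% to 42.9% for KI 48 h and from 53.7% to 43.1% for KO 48 h. Over all genes, KI against wt at 48 h had 889 calls, 1697 by DESeq2, 1746 without KO mouse 1 in the shared fit, 109 in the compared groups alone and 89 to 1278 without 1 mouse. KO against wt at 48 h had 6, 29 by DESeq2 and 4770 without KO mouse 5. KO 48 h against naive had 9326 and 1373 in the compared groups alone. From 24 h to 48 h there were 1578 in wt (2428 by DESeq2, 2573 without KO mouse 1, 133 to 1398 without 1 mouse) and 567 in KI cells (1256, 1180 and 0 to 157). KI against wt had 17 in naive cells (58 by DESeq2) and 1 at 24 h (58 by DESeq2), and the KI by 48 h interaction had 82 (360 by DESeq2, 1 to 94 without 1 mouse). KI 24 h against naive had 8206 (4855 to 6270 without 1 mouse), KO against wt in naive cells 5 (1 to 23), the KI by 24 h interaction 0 (4 by DESeq2) and the KO by 48 h interaction 0 (1334 without KO mouse 5). The number of mice, 2 or 3 a group, limits every comparison.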
